A study of Mus musculus with 272 samples.

Results

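The histone genes examined were the 71 symbols, of 15854 in the expression table, whose names begin with the stems used for histones H1, H2A, H2B, H3, H4 and macroH2A. By symbol, 57 of them were replication-dependent genes of the histone clusters (5 H1, 15 H2A, 15 H2B, 10 H3 and 12 H4 genes). A further 4 were germ-cell variants: H1f8, the oocyte linker histone once called H1foo, H2ac1, which encodes TH2A, H2bc1, which encodes TH2B, and H3f4. The other 10 were variants made in somatic cells: H1f0, H1f10, H2aj, H2ax, H2az1, H2az2, H3f3a, H3f3b, Macroh2a1 and Macroh2a2. The selection used names and no measured value.

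RNA had been sequenced from mouse oocytes and preimplantation embryos at 8 stages: GV oocyte (held at prophase of the first meiosis), MII oocyte (held at metaphase of the second), zygote, 2-cell, 4-cell, 8-cell, morula and blastocyst. At each stage 4 pools of 20 oocytes or embryos gave whole transcriptomes (32 libraries). About 100 more per replicate were lysed with cycloheximide, which freezes ribosomes on mRNA, and spun through a sucrose gradient that was cut into 10 fractions, in 3 gradients a stage (240 libraries). The design text says that the pools came from the batch of cells used for the gradients; strain, age, mating and genotype are not given in the sources used here, and no group carried a treatment other than its stage. Nothing states that replicates came from separate animals, so p-values measure the spread between pools or gradients, which may be technical. Each pool and each gradient mixes many embryos, so a drop in a transcript through fewer cells of a kind and through less RNA per cell cannot be told apart, and CPM (a gene's reads scaled to a fixed library total) is relative to all other RNA.

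Replication-dependent histone genes are transcribed mainly in S phase, and their mRNAs usually end in a short stem-loop, bound by the protein SLBP, in place of a poly(A) tail. Variant histones such as H3.3 (H3f3a, H3f3b) and H2A.Z (H2az1, H2az2) are made throughout the cell cycle from ordinary polyadenylated mRNAs and can be placed into chromatin without DNA replication. Mouse oocytes hold a linker histone of their own, H1f8, which is known to be replaced by somatic H1 proteins after fertilisation.

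The stem-loop was looked for in GENCODE M21 transcripts (capitals mark the 16 bases of the stem and loop, with up to 5 bases on each side). It was found in 41 of 55 matched replication-dependent genes (74.5%), in none of 3 matched germ-cell variants, H1f8 among them, and in 1 of 10 somatic variants, H2ax. The annotated transcripts of H2ac1 (390 bases, 387 coding) and H2bc1 (384 bases, 381 coding) stop where the coding sequence ends. A stem-loop after it could not be found in them. The same held for some replication-dependent genes without a match, such as H2ac13 (393 bases, 390 coding) and H3c10 (411 bases, 408 coding). These counts therefore depend on the annotation. Over all 21901 protein-coding genes of that annotation, 68 (0.31%) held it. The members shown are those that carry the results below.
H1f4: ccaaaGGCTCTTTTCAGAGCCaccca
H2ac11: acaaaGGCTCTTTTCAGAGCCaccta
H2ac24: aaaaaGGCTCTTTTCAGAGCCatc
H4c4: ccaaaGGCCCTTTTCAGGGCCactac
H4c3: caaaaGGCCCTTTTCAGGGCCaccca
H2ax: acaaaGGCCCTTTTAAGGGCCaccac
The first form, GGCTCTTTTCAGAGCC, stood in 23 members of the H1, H2A, H2B and H3 families, and the second, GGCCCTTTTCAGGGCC, in 7 members that were all H4 genes. H1f5 and H2bc4, both described below, are classed as replication-dependent by symbol, but these letters were not in their annotated transcripts. The coding sequences were close copies: 41 of 55 replication-dependent genes shared at least 95% of their coding bases with another member, the median best identity was 98.4%, and H2ac24 was identical to H2ac23. How reads that fit several copies were assigned is not given in the sources used here, so values of single cluster genes are uncertain between copies. The labels also give the molecule as polyA RNA, and how far that capture lowered stem-loop mRNAs was not tested.

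The 150 bases before the start site, taken from RefSeq on GRCm38.p6 for 64 members, are shown for H1f8, which fell between the 2-cell and 4-cell stages, and for 3 cluster genes that rose at that step. Capitals mark matches on either strand to CCAAT (the CCAAT box), TATAAA (the TATA box), ATTTGCAT (the octamer) and AAACACA (the H1 box).
H1f8, chr6:115944781-115944930 (+): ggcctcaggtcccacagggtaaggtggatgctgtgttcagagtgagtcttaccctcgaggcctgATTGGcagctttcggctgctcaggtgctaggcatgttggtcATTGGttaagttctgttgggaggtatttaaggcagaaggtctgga
H1f5, chr13:21780626-21780775 (-): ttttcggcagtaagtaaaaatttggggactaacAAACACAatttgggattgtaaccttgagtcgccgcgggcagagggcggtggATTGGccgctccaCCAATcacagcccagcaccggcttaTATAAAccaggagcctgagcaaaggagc
H2ac24, chr13:21833476-21833625 (-): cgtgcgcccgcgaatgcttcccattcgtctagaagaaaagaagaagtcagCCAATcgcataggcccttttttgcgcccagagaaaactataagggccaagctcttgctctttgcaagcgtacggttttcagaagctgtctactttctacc
H4c4, chr13:23581418-23581567 (+): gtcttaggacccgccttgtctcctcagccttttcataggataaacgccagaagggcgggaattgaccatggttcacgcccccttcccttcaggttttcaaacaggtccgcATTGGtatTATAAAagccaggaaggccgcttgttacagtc
A CCAAT match stood in 42 of 51 replication-dependent genes, 4 of 4 germ-cell variants and 5 of 9 somatic variants, against 25.3% of 27025 promoters of the same length. TATAAA was found in 21 of 51, 2 of 4 and 1 of 9, against 8.08% of all promoters. The H1 box stood in 6 of 51 replication-dependent genes (3.5% of all promoters) and the octamer in 8 of 51 (277 of 27025 promoters). These matches are letters in a window and describe no bound factor.

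Libraries held 11.8 to 25.2 M reads in transcriptomes (median 18.0 M) and 0.0105 to 44.0 M in fractions (median 19.0 M), the shallowest being fraction 1 of GV oocyte gradient A. In the transcriptomes marker genes followed the labelled stages: the summed CPM of 5 oocyte markers went from 12440 to 14500 in GV oocytes to 4.14 to 10.9 in blastocysts, and that of 5 blastocyst markers from 6.28 to 10.9 up to 2334 to 2834. Markers of cumulus or granulosa cells (3 of 7 listed were in the table) summed to 39.4 to 68.9 CPM in oocyte transcriptomes and to at most 0.227 CPM in those from the 4-cell stage on. The gradients differed in level. Markers of 2-cell embryos summed to 677.1 to 1040 CPM in 2-cell gradients, against 2248 to 2946 CPM in 2-cell transcriptomes. The blastocyst markers summed to 771.8 to 1391 CPM in morula gradients, against 301.8 to 397.7 CPM in morula transcriptomes.

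In the transcriptomes 54 of the 71 members passed the filter on low values (at least 1 CPM in at least 4 libraries) among 14642 genes. A gene was called when limma, fitted to log2(CPM + 1) over all stages, gave a Benjamini-Hochberg adjusted p below 0.05 and a change of at least 1 on that log2 scale. The 17 members left out were 16 replication-dependent genes and H3f4, with no stage mean above 2.54 CPM. Changes on this scale understate those of genes with few reads.

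From GV to MII oocytes 15 of 54 members fell and none rose, against 25.3% of all genes called lower and 9.11% called higher. From MII oocyte to zygote 6 rose and 1 fell (5.79% and 4.48% of all genes), and from zygote to 2-cell 7 rose and 6 fell (25.2% and 8.71%). The step from 2-cell to 4-cell moved 16 up and 9 down (31.8% and 32.9%). Few moved next: 3 rose from 4-cell to 8-cell (0.451% of genes higher, 2.14% lower), and between 8-cell embryos and morulae 1 rose and 1 fell (8.18% and 3.7%). In the last step, into the blastocyst, 25 rose and 1 fell (18.8% and 7.97%). The 4-cell to 8-cell calls, H4c9, H2ac20 and H2ac8, were all lost when only those stages were fitted, and edgeR on recovered reads made none of them.

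H1f8 was the most abundant histone transcript of the oocyte by length and stood at under 10 CPM in 4-cell embryos. Its CPM in the 4 GV oocyte libraries was 7064, 7128, 7538 and 7608, and in the MII oocyte libraries 10970, 12340, 12450 and 15600. The zygote libraries held 5223, 5532, 5905 and 6713 CPM, below every oocyte library of either kind. The 2-cell libraries held 202.8, 255.7, 262 and 423.7 CPM, and the 4-cell libraries 3.70, 4.00, 4.02 and 8.16 CPM; neither group overlapped the one before. Means went on down to 3.29 ± 1.76 CPM at the 8-cell, 1.67 ± 0.494 at the morula and 0.667 ± 0.134 at the blastocyst stage (SD, n = 4), where 10 to 18 reads a library remained.

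In limma's fit the changes of H1f8 were -1.13 from MII oocyte to zygote (SE 0.22, adjusted p = 0.00014), -4.40 from zygote to 2-cell (SE 0.22, adjusted p = 9.87e-19) and -5.59 from 2-cell to 4-cell (SE 0.22, adjusted p = 1.73e-22). As ratios of mean CPM the last 2 steps were 20.4-fold and 57.5-fold. The GV to MII difference of 0.80 (SE 0.22, adjusted p = 0.00225) stayed under the size threshold in this fit, although the groups did not overlap, and was called by edgeR on recovered reads (1.30, adjusted p = 1.39e-05). After the 4-cell stage the differences of -0.51, -0.61 and -0.67 were not called. No transcriptome call of H1f8 was lost under any alternative that was run.

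Set beside the other linker genes per kilobase of transcript, H1f8 made up 99.5% of the linker histone level in GV oocytes (lowest 99.4%, highest 99.6%, n = 4), 99.8% in MII oocytes and 99.0% in zygotes. At the 2-cell stage it was 85.1% (83 to 87.5%), and at the 4-cell stage 4.17% (3.77 to 5.00%). In blastocysts 0.251% was left. The ranges of the 2-cell and 4-cell transcriptomes did not meet. The 2-cell gradients differed from the 2-cell transcriptomes: there H1f8 was 16.7, 50.7 and 38.1% of linker CPM in the heavy side and 24, 58 and 27.3% in the light side (not adjusted for length), and H1f1 averaged 524.5 ± 108.3 CPM over the fractions against 354.4 ± 194.8 CPM of H1f8.

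At the step from 2-cell to 4-cell, where H1f8 fell furthest, 4 of 5 replication-dependent linker genes were called higher and none lower. Over all genes 31.8% were called higher and 32.9% lower. At the step from zygote to 2-cell H1f8 also fell, but none of the 5 was called higher and 2 were called lower, H1f1 and H1f4. Over all genes 25.2% were called higher and 8.71% lower there. H1f5 was at or near 0 in oocytes and zygotes (0 to 4 reads in each library), stood at 0.383 to 1.19 CPM in 2-cell embryos and at 16.5, 17.7, 17.7 and 44.6 CPM in 4-cell embryos. That is a change of 3.73 (SE 0.25, adjusted p = 7.29e-16), and no 4-cell library came near a 2-cell one. H1f4 went from 0.508, 0.578, 1.18 and 1.76 CPM to 11.4, 19.2, 21.2 and 47.0 CPM (change 3.55, SE 0.40, adjusted p = 3.91e-10), after a fall from 6.99 ± 1.51 CPM in zygotes (change -2.02, adjusted p = 4.09e-05). H1f3 rose at the same step (change 2.83, SE 0.39, adjusted p = 4.04e-08). In blastocysts H1f4 averaged 139.6 ± 61.6 CPM, H1f5 67.9 ± 12.2 CPM and H1f3 61.3 ± 13.6 CPM, each above its morula mean (changes 1.55, 1.32 and 2.15, adjusted p = 0.00124, 3.83e-05 and 1.91e-05).

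In the transcriptomes other linker genes moved less. H1f1 was detected at every stage, between 9.22 ± 3.49 CPM in MII oocytes and 26.3 ± 6.38 CPM in zygotes. It rose by 1.47 from MII oocyte to zygote (adjusted p = 0.000151) and fell by 1.14 to the 2-cell stage (adjusted p = 0.00102), a call lost without zygote library C. Over the gradient fractions H1f1 did not fall at that step. It averaged 267.2 ± 31.8 CPM in zygotes, 524.5 ± 108.3 CPM in 2-cell and 38.4 ± 2.75 CPM in 4-cell embryos there (not tested). In the transcriptomes H1f0, a replacement linker histone of non-dividing cells, rose by 1.33 from zygote (19.3 ± 2.98 CPM) to 2-cell (51.0 ± 16.3 CPM, adjusted p = 0.000206), a call that edgeR on recovered reads did not make (0.95). It rose again by 1.25 from morula to blastocyst (adjusted p = 0.000522), also not called by edgeR (0.95). Over the gradient fractions H1f0 went down from zygote (43.2 ± 3.38 CPM) to 2-cell (22.6 ± 2.97 CPM). It was level from morula (41.9 ± 13.6 CPM) to blastocyst (40.3 ± 2.92 CPM, not tested).

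**Figure D1:**
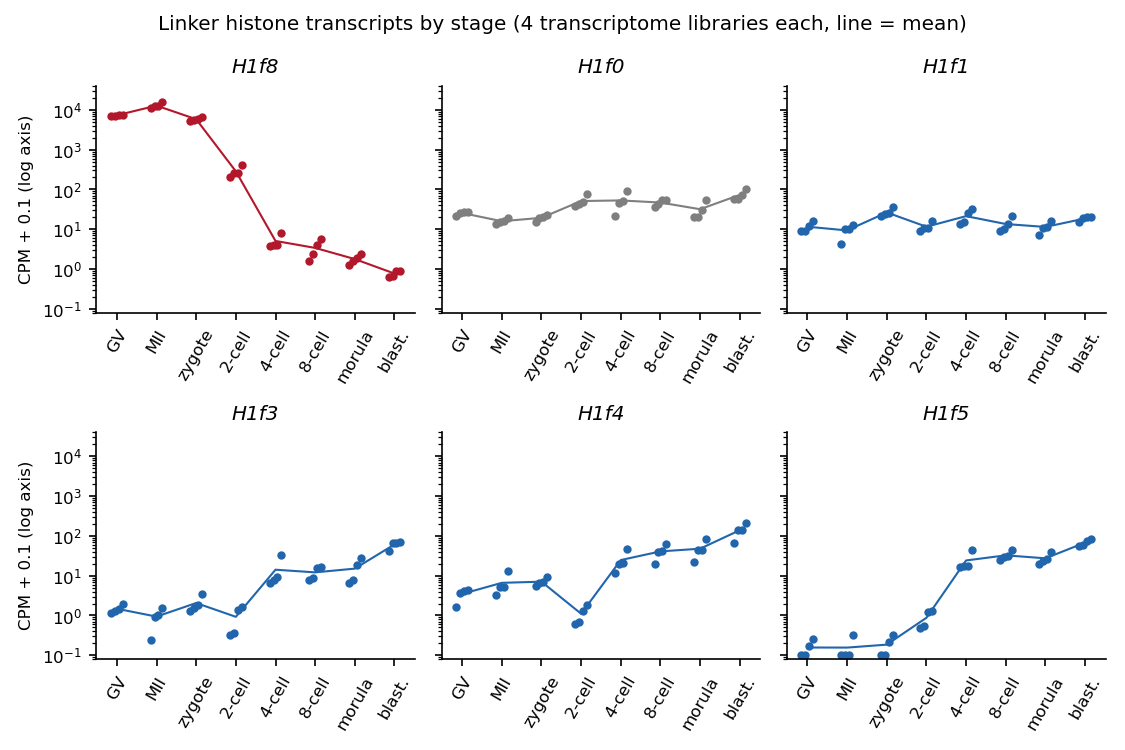
CPM + 0.1 of 6 linker histone genes on a log axis, by stage; points are the 4 transcriptome libraries and lines join the means. H1f8 dropped from 5843 CPM in zygotes to 286 in 2-cell and 4.97 in 4-cell embryos, while H1f4 and H1f5 rose to 24.7 and 24.1 CPM at the 4-cell stage.

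Of the germ-cell core histones in the transcriptomes, H2ac1 was highest in oocytes: 10.4 ± 1.29 CPM in GV oocytes, 8.13 ± 0.833 in MII oocytes, 6.55 ± 0.651 in zygotes, 1.72 ± 0.202 in 2-cell and 0.40 ± 0.558 in 4-cell embryos. Its falls of 1.47 at zygote to 2-cell (adjusted p = 7.69e-08) and 1.03 at 2-cell to 4-cell (adjusted p = 1.65e-05) were called, the later one lost under quantile normalization and without any 1 of 4 libraries (2-cell E, 4-cell A, 4-cell C or 4-cell D). H2bc1 was low and uneven, at 3.31 ± 0.643 CPM in GV oocytes, 0.491 ± 0.173 in MII oocytes, 3.45 ± 1.07 in zygotes and 0.109 ± 0.0734 in 4-cell embryos. H3f4 never reached 1 CPM on average (highest mean 0.771 CPM, in morulae) and was not tested. Over the gradient fractions H2ac1 did not fall from zygote to 2-cell. It averaged 21.8 ± 13.1 CPM in GV oocytes, 27.8 ± 9.44 in MII oocytes and 23.3 ± 4.01 in zygotes there. In 2-cell embryos it held 31.2 ± 9.74 CPM and in 4-cell embryos 3.86 ± 2.54 CPM (not tested).

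In these polyA RNA transcriptomes the H3 family was carried by the H3.3 genes at every stage. How far the polyA capture lowered stem-loop H3 mRNAs, and so raised the share of the H3.3 genes, was not tested. Per kilobase, H3f3a and H3f3b together made up between 98.7% and 99.8% of the level of the 12 H3 genes with an annotated length from GV oocyte to morula, and 92.3% (89.4 to 95%, n = 4) in blastocysts. H3f3b held 1880, 1881, 1932 and 2003 CPM in GV oocytes and 3150, 3189, 3239 and 3485 CPM at the 4-cell stage. It then fell from 2061, 2740, 2791 and 2806 CPM in 8-cell embryos to 971.4, 1016, 1141 and 1201 CPM in morulae (change -1.26, SE 0.11, adjusted p = 1.05e-10), with no overlap. H3f3a peaked at the 8-cell stage, at 2639, 2828, 2866 and 3072 CPM, and fell later than H3f3b, from 2215 ± 204 CPM in morulae to 807.8 ± 90.2 CPM in blastocysts (change -1.46, SE 0.11, adjusted p = 1.47e-13). Both genes encode the same H3.3 protein, and in the transcriptomes the step at which each fell was a different one. Over the gradient fractions H3f3a did not fall into the blastocyst. It averaged 849.5 ± 271.2 CPM in 8-cell embryos, 609.8 ± 113.8 CPM in morulae and 735.8 ± 69.3 CPM in blastocysts there. H3f3b averaged 1707 ± 484.9, 1050 ± 237.7 and 1043 ± 190.1 CPM at these stages (not tested).

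The H2A.Z genes, which encode a variant found at promoters, rose at the 2-cell stage. H2az1 held 55.6, 56.1, 56.4 and 61 CPM in zygotes and 374, 491.5, 537.4 and 569.6 CPM in 2-cell embryos (change 3.07, SE 0.14, adjusted p = 2.69e-20). It reached 2160 ± 133 CPM at the 4-cell stage (change 2.15, adjusted p = 1.54e-16) and was at least 1101 CPM in every later library. H2az2 differed from it in oocytes: 86.8, 87, 87.4 and 104.6 CPM in GV oocytes against a mean of 4.40 and at most 5.82 CPM in MII oocytes, the largest histone fall of meiotic maturation (change -4.11, SE 0.14, adjusted p = 5.07e-24). Over that step H2az1 held 45.8 ± 7.41 and 45.7 ± 4.91 CPM, not called. H2az2 then rose at each of the next 3 steps (changes 1.73, 2.88 and 1.76, adjusted p = 4.36e-12, 2.29e-19 and 5.15e-14), to 438.4 ± 29.1 CPM in 4-cell embryos.

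H2ax, whose protein is phosphorylated at DNA breaks, and H2aj, a close relative of the canonical H2A, also fell between GV and MII oocytes in the transcriptomes. H2ax went from 68.6, 73.2, 77.1 and 77.3 CPM to 10.6, 14.3, 18 and 18.3 CPM (change -2.23, SE 0.25, adjusted p = 1.16e-09), and H2aj from 11.5 ± 1.12 to 0.79 ± 0.278 CPM (change -2.81, adjusted p = 5.31e-12). Both came back at the 4-cell stage, with changes of 3.55 for H2ax (11.5 ± 4.50 to 141.5 ± 30.6 CPM, adjusted p = 2.59e-15) and 3.72 for H2aj (3.29 ± 0.871 to 57.0 ± 18.6 CPM, adjusted p = 8.32e-16). H2ax rose further into the blastocyst, from 128.7, 131.7, 133.1 and 152.5 CPM to 241.9, 332.5, 416.2 and 470 CPM (change 1.37, adjusted p = 2e-05). Over the gradient fractions H2ax also went down from GV to MII oocytes, from 917.4 ± 369.3 to 34.9 ± 39.9 CPM. H2aj did not, with 40.6 ± 11.2 CPM in GV and 60.9 ± 23.8 CPM in MII oocyte fractions (not tested). Into the blastocyst H2ax went down over the fractions, unlike in the transcriptomes. It averaged 736.5 ± 107.7 CPM in morulae and 513.6 ± 26.4 CPM in blastocysts there (not tested).

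MacroH2A, a variant tied to silent chromatin, rose late. Macroh2a1 averaged 13.2 ± 1.39 CPM in GV oocytes and 2.59 ± 0.622 CPM in 4-cell and 2.76 ± 1.17 CPM in 8-cell embryos. It then held 9.90, 14.4, 21.9 and 22.9 CPM in morulae (change 2.26, SE 0.24, adjusted p = 9.89e-09) and 97.2, 114.8, 136.5 and 139 CPM in blastocysts (change 2.80, adjusted p = 7.45e-12), with no overlap at either step. Macroh2a2 had no read in any 8-cell library, where up to 3 reads of a library cannot be told from 0, and stood at 2.76 ± 0.952 CPM in blastocysts. It fell between GV and MII oocytes (change -1.23, adjusted p = 9.77e-06), a call lost in edgeR on recovered reads (adjusted p = 0.103) and under quantile normalization.

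In the transcriptomes the replication-dependent genes were a small part of the histone reads before the 4-cell stage. Their summed CPM was 142.3 ± 8.48 in GV oocytes, 48.7 ± 11.7 in MII oocytes, 76.1 ± 15.2 in zygotes and 78.6 ± 9.14 in 2-cell embryos (SD, n = 4). It was 497.8 ± 229.8 at the 4-cell, 624.1 ± 75.3 at the 8-cell, 858.8 ± 376.3 at the morula and 1543 ± 712.1 at the blastocyst stage. The spread was wide: 4-cell libraries A to D held 236.3, 750.3, 387.6 and 616.8 CPM, morula libraries 1168, 317.2, 1042 and 908.1 CPM, and blastocyst libraries 798.1, 1445, 1414 and 2513 CPM. All 4-cell libraries lay above all 2-cell ones (67.1 to 88.4 CPM), while the 4-cell, 8-cell and morula libraries overlapped. The somatic variants summed to 4147 ± 177 CPM at the 2-cell and 8650 ± 554.8 CPM at the 8-cell stage. They summed to 4248 ± 171.3 CPM at the blastocyst stage. From 2-cell to 4-cell the replication-dependent sum did not rise in the gradients. The heavy side averaged 1891 ± 699.6 CPM in 2-cell and 1467 ± 610.3 CPM in 4-cell embryos. The light side averaged 1875 ± 333.5 and 1139 ± 129.1 CPM at these stages (not tested).

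Different families led at different stages (family sums are not adjusted for length). H2B genes led in GV oocytes, with a sum of 102.8 ± 4.48 CPM, most of it H2bc4 (85, 85.2, 86.8 and 88 CPM). Of 41 replication-dependent genes 9 were called lower in MII oocytes, near the 25.3% of all genes; 6 were H2B, 2 H4 and 1 H3, with H2bc4 down by 2.19 (SE 0.23, adjusted p = 3.48e-10) to 13.7, 17.4, 19.2 and 23.9 CPM. H2bc4 fell again at zygote to 2-cell (-1.41, adjusted p = 2.82e-06) and 2-cell to 4-cell (-1.83, adjusted p = 7.17e-09), to 0.491 ± 0.451 CPM. By the 8-cell stage the H2B sum was 4.47 ± 0.909 CPM. Quantile normalization gave 7 calls among all members from GV to MII oocyte in place of 15, with 2 higher and 5 lower and 5 shared, and took the median change of the 3 germ-cell variants from -0.32 to 0.40.

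H2A and H4 genes led from the 4-cell stage. From 2-cell to 4-cell 12 of 41 tested replication-dependent genes rose (6 H2A, 4 H1 and 2 H4) and 6 fell (3 H2B, 2 H4 and 1 H3), where 31.8% of all genes were called higher and 32.9% lower, so the count that rose was near the background. The median change was 0.46 against 0.02 over all genes. H4c4 went from 3.68, 5.25, 5.33 and 6.21 CPM to 66, 96, 149.3 and 232.5 CPM (change 4.35, SE 0.34, adjusted p = 3.47e-14). H2ac24, close to nothing in zygotes (2 to 4 reads a library), held 4.81, 5.06, 5.45 and 9.82 CPM in 2-cell embryos (change 2.60, adjusted p = 5.02e-07) and 30.8, 69.9, 151.5 and 173.2 CPM in 4-cell embryos (change 3.64, adjusted p = 1.39e-10). H2ac23 (changes 2.42 and 3.64), its identical copy in coding sequence, and H2ac11 (1.79 and 2.88) rose at both steps too. Together H2ac11, H2ac23, H2ac24 and H4c4 took 7.22% ± 1.58 of the replication-dependent reads in zygotes, 25.8% ± 5.02 in 2-cell and 72.3% ± 9.03 in 4-cell embryos. Over the gradient fractions H4c4 did not rise, at 267.9 ± 75.2 CPM in 2-cell and 167.6 ± 66.7 CPM in 4-cell embryos. The means of H2ac11, H2ac23 and H2ac24 rose there (not tested).

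H4 genes did not move as 1 group. H4c3 rose from 1.06, 2.17, 2.61 and 2.98 CPM in zygotes to 9.28, 10.6, 10.7 and 11.9 CPM in 2-cell embryos (change 1.90, SE 0.24, adjusted p = 2.56e-08), then fell to 0.506, 0.857, 1.39 and 2.40 CPM in 4-cell embryos (change -2.41, adjusted p = 3.8e-11), opposite to H4c4. H4c1 fell at the same step (change -1.91, adjusted p = 1.4e-10), from 3.53 ± 0.988 to 0.193 ± 0.159 CPM.

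Into the blastocyst 20 of 41 replication-dependent genes were called higher and none lower (4 H1, 2 H2A, 4 H2B, 6 H3 and 4 H4), where 18.8% of all genes were called higher and 7.97% lower, with a median change of 1.00 against 0.16 over all genes. The H2B sum went from 5.67 ± 1.44 to between 22.5 and 25.7 CPM and the H3 sum from 9.27 ± 2.11 to between 22.6 and 43.4 CPM. H2bc4 had the largest change of these on the log2(CPM + 1) scale (2.34, SE 0.23, adjusted p = 2.06e-10; 8.32 ± 2.21 CPM), a 10.2-fold ratio of means, while H1f3 had 4.09-fold and H1f5 2.49-fold. H3c1, named after its values were seen, had a higher ratio (15.1-fold, from 0.148 ± 0.107 to 2.23 ± 0.613 CPM) at few reads. edgeR on recovered reads did not make 8 of the 20 calls, 5 of them H3 genes. The number of replication-dependent genes with a mean of at least 1 CPM went from 22 of 57 in morulae to 42 of 57 in blastocysts. H2ac24, already high, held 230.8 ± 114.1 CPM in morulae and 244.6 ± 109.3 CPM in blastocysts and was not called. Without morula library B, whose sum is the lowest, 8 of the 28 calls that involve morulae were lost, and quantile normalization left 13 calls among all members in place of 26. Over the gradients the replication-dependent sum showed no such rise. It averaged 1134 ± 86.9 CPM in the heavy side of morulae and 890.7 ± 216.2 CPM in that of blastocysts. The light sides held 1664 ± 84.3 and 1791 ± 421.6 CPM. Over all fractions H2bc4 went from 9.12 ± 2.83 to 19.1 ± 6.72 CPM, H1f3 from 37.2 to 40.0 and H1f5 from 189.4 to 213.2 CPM (not tested).

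**Figure D2:**
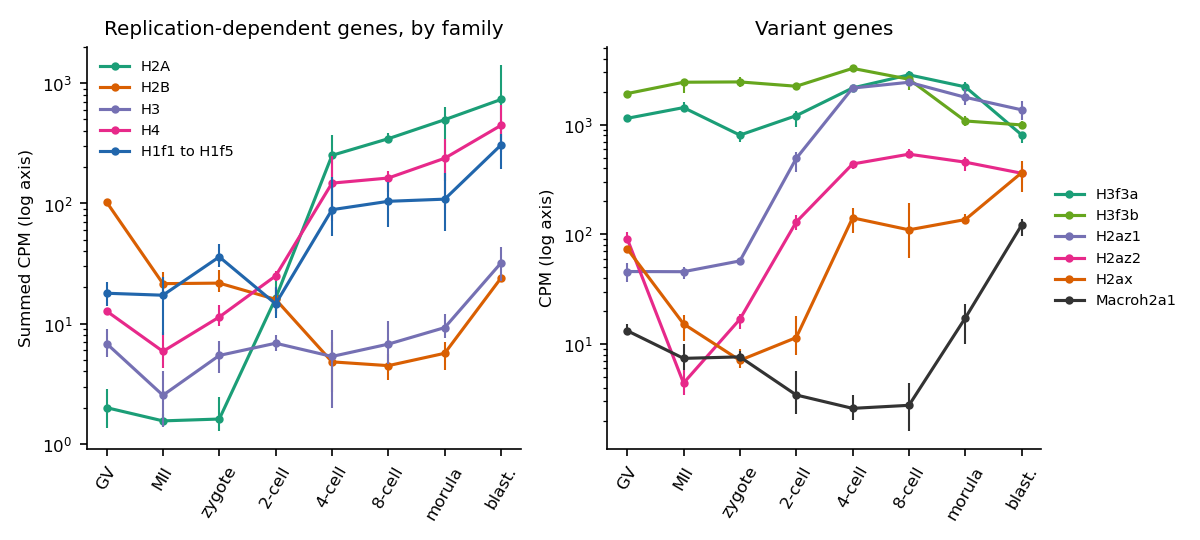
Left, summed CPM of replication-dependent genes by family, and right, CPM of 6 variant genes, both on log axes by stage; points are means of 4 transcriptome libraries and bars span the lowest to the highest library. The H2A sum climbs from 1.61 CPM in zygotes to 251.3 CPM at the 4-cell stage while the H2B sum sinks from 102.8 CPM in GV oocytes to 4.47 CPM at the 8-cell stage.

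In the gradients, the heavy side is the mean of fractions 6 to 10, where mRNAs that carry many ribosomes are usually found, and the light side that of fractions 1 to 5; the labels number the fractions without naming the ends. Each side's CPM is the mean of its 5 fractions, all weighted alike whatever RNA they held, and 69 of 71 members were tested among 15172 genes (H2bc24 and H4c17 were too low). In GV oocytes limma called no member (1 at an unadjusted p below 0.05, and none by edgeR), against 0.0461% of genes higher and 0.0264% lower in the heavy side. In MII oocytes 2 were higher and 1 lower (1.71% and 1.52% of genes), in zygotes 1 higher (2.14% and 0.87%) and in 2-cell embryos 4 higher and 2 lower (6.43% and 11.8%). In 4-cell embryos 1 was higher and 6 lower (3.4% and 12.9%), in 8-cell embryos 3 higher (2.43% and 6.62%), and in morulae 1 lower (1.64% and 4.17%). None was called in blastocysts (0.633% and 2.11%; 10 at an unadjusted p below 0.05). Fitted with each stage alone, which leaves 3 gradients to estimate the spread, no member was called at the 2-cell or 4-cell stage, so those calls rest on the spread shared by all stages.

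H1f8 lay further to the heavy side in MII oocytes and zygotes than in GV oocytes, without a call in the shared fit. Its heavy side held 5109, 5700 and 4260 CPM in GV oocyte gradients A, B and C against 8272, 8547 and 5605 CPM in the light side. In MII oocytes the order was turned, with 8212, 7733 and 6299 CPM in the heavy and 3833, 3560 and 3597 CPM in the light side. Zygotes had 2339, 3102 and 4410 CPM in the heavy and 758.4, 638.9 and 574.4 CPM in the light side. In each of these 9 gradients the sign followed the stage, and the heavy and light sides of MII oocytes and of zygotes did not overlap. The differences were -0.56 in GV oocytes, 1.01 in MII oocytes and 2.28 in zygotes on the log2 scale.

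The shared fit did not call these differences (SE 0.79; adjusted p = 1, 0.749 and 0.117), in which the SE of H1f8 also takes in the later stages. With only the compared stage in the fit the SE was 0.25 to 0.28, the zygote difference was called (adjusted p = 0.0114) and those of MII oocytes (adjusted p = 0.068) and GV oocytes (adjusted p = 0.34) were not. edgeR on recovered reads gave 2.23 in zygotes (adjusted p = 0.714). The changes of the difference itself, 1.57 from GV to MII oocyte and 1.27 from MII oocyte to zygote, were not called in the shared fit (adjusted p = 1 in both, limma) nor in a fit of the stages alone (adjusted p = 0.0844 and 0.235). Over all genes, 0.185% and 0.0198% were called for these 2 shifts, and no histone gene was; at an unadjusted p below 0.05 there was 1 member for each, and edgeR called 0 and 1.

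The mean position of H1f8 along the fractions, weighted by CPM, was 4.95 ± 0.24 in GV oocytes, 6.75 ± 0.23 in MII oocytes and 7.58 ± 0.27 in zygotes (SD, n = 3). Among genes with enough reads these were the 18.6, 84.6 and 95.4 percentiles of the stage. The highest mean CPM lay in fraction 2 of GV oocytes (10810 ± 3365), fraction 10 of MII oocytes (12350 ± 4921) and fraction 9 of zygotes (5352 ± 1651). Of the linker histone CPM in zygote gradients, H1f8 made up 89.9, 92.4 and 92.5% in the heavy side and 60.7, 62 and 54.7% in the light side (not adjusted for length).

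At the 4-cell stage H1f8 lay in the light side: 311, 84.0 and 15.7 CPM there against 0.0519, 0 and 3.64 CPM in the heavy side (change -5.49, SE 0.79, adjusted p = 4.85e-06). These light sides were above the 4-cell transcriptomes, which held at most 8.16 CPM. The oocyte marker sum was also higher in the 4-cell gradients (439.5 to 671.4 CPM) than in the 4-cell transcriptomes (34.6 to 48.6 CPM), and its part in this result was not tested. The call was lost when only 4-cell gradients were fitted (adjusted p = 0.348). H1f1, H1f0 and H2bc11 were also called lower in the heavy side of 4-cell embryos (-3.43, -2.63 and -3.85), none of them by edgeR on recovered reads or with that stage alone, and H1f1 not without gradient C.

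**Figure D3:**
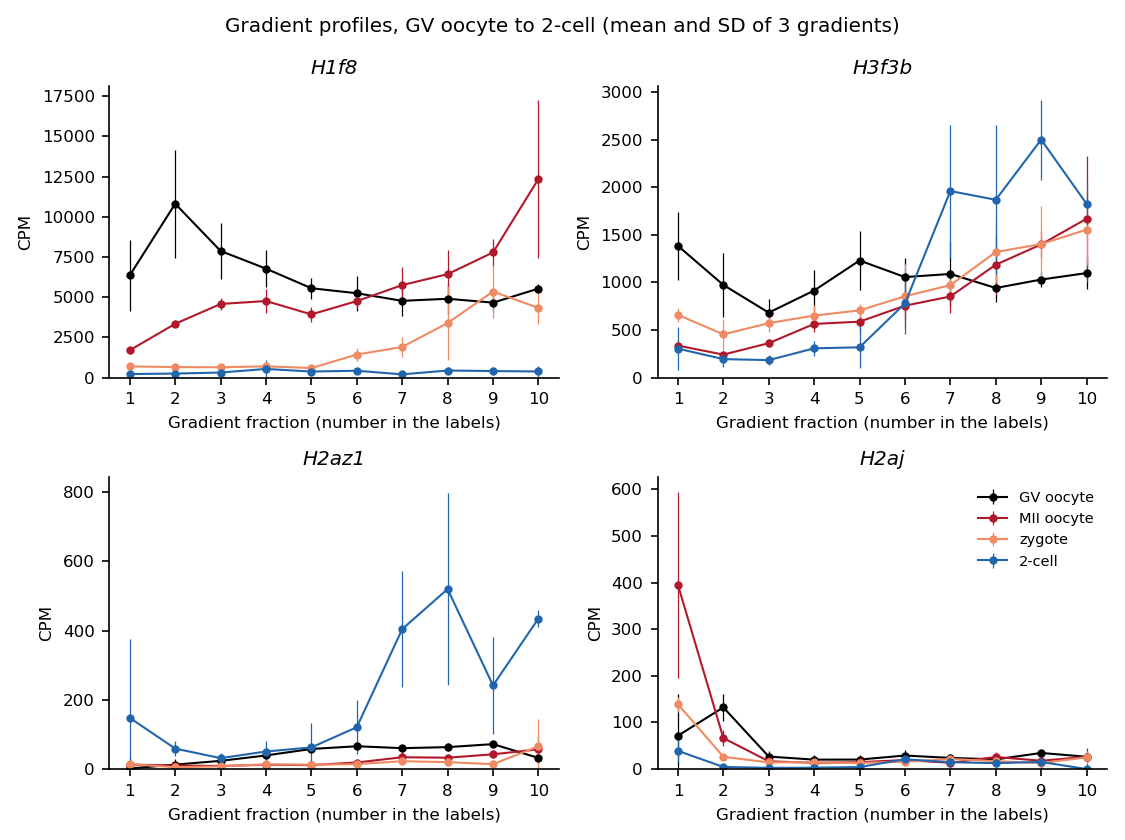
CPM by gradient fraction for H1f8, H3f3b, H2az1 and H2aj in GV oocytes, MII oocytes, zygotes and 2-cell embryos; points are means and bars SDs of 3 gradients. H1f8 peaks in fraction 2 in GV oocytes and in fractions 10 and 9 in MII oocytes and zygotes, and H2aj peaks in fraction 1 of MII oocytes (395.1 CPM).

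The H3.3 gene H3f3b was the member most often called in the heavy side, at 5 of 8 stages. In GV oocytes its sides were alike, with 966.7, 968.3 and 1194 CPM in the heavy and 1162, 970.9 and 978 CPM in the light side. In MII oocytes they were 1358, 1217 and 941.5 against 392.8, 444.1 and 417.4 CPM (difference 1.47, SE 0.28, adjusted p = 0.000896). In 2-cell embryos they stood furthest apart, at 1959, 1364 and 2037 against 300.4, 239.6 and 244.2 CPM (difference 2.75, SE 0.28, adjusted p = 5.65e-09). No gradient overlapped between sides at either stage. It was also called in zygotes (1.00, adjusted p = 0.0375), 4-cell (1.04, adjusted p = 0.00807) and 8-cell embryos (1641, 3089 and 2860 against 654.8, 834.3 and 1165 CPM, adjusted p = 0.000206). The zygote call was lost without any 1 gradient and in edgeR, and the 4-cell call without gradient B or C, under quantile normalization and with the light side from fractions 2 to 5. With only the stage itself in the fit the 2-cell (adjusted p = 0.0581), 4-cell (adjusted p = 0.589) and 8-cell calls (adjusted p = 0.148) were all lost.

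H3f3a was called in the heavy side of 2-cell (549.1, 515.4 and 645.6 against 159.9, 166.1 and 295.2 CPM; 1.51, SE 0.39, adjusted p = 0.00465) and 8-cell embryos (1.40, adjusted p = 0.0147). In zygotes, where H3f3b lay to the heavy side, H3f3a had 279, 205.1 and 253.9 CPM in the heavy and 387, 294.6 and 267.4 CPM in the light side (-0.36, not called). The difference between these genes was not tested. The 8-cell call of H3f3a was lost without gradient A or B and by edgeR (adjusted p = 0.0693).

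H2az1 was low but one-sided in oocytes. MII oocytes held 43.0, 31.3 and 37.2 CPM in the heavy and 17.6, 8.58 and 7.66 CPM in the light side (difference 1.71, SE 0.39, adjusted p = 0.00618), and 2-cell embryos 225.1, 477.8 and 330.1 against 49.5, 43.0 and 118.9 CPM (2.36, adjusted p = 2.79e-05). GV oocytes had 60.5, 58.2 and 57.8 against 25.6, 29.7 and 26.2 CPM, which did not overlap and were not called (1.10). The MII call was lost without gradient B or C (adjusted p = 0.0723 and 0.146). In 8-cell embryos the sides held 1548, 1989 and 1789 against 632.5, 736.5 and 765.9 CPM (1.32), a call lost without any 1 gradient. H2az2 was called in 2-cell embryos alone among the stages (1.20, adjusted p = 0.032), and that call was lost without gradient A or B.

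H2aj was the one somatic variant called to the light side in oocytes: 25, 13.6 and 23.1 CPM in the heavy and 149.5, 68.3 and 86.2 CPM in the light side of MII oocytes (-2.21, SE 0.47, adjusted p = 0.00322). That difference came from fraction 1, with 395.1 ± 199.5 CPM against 66.6 ± 18.1 CPM in fraction 2. With the light side taken from fractions 2 to 5 it was -0.44 (adjusted p = 0.908), and it was not called by edgeR on recovered reads (adjusted p = 0.106) or without gradient A (adjusted p = 0.0603). H2ax did not pass the test at any stage. In morulae its heavy side held 1196, 1105 and 889.1 CPM and its light side 442, 446 and 340.5 CPM, which did not overlap.

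**Figure D4:**
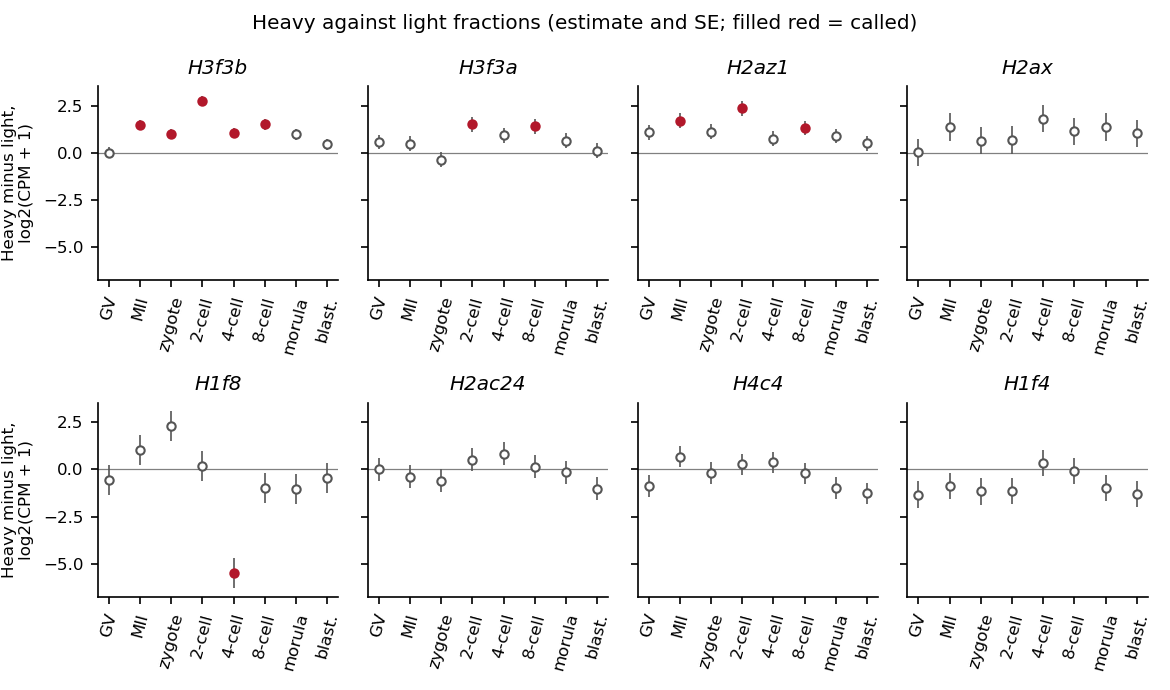
Heavy minus light difference on the log2(CPM + 1) scale for 8 members by stage, with SE from the fit shared by all stages; filled points were called. H3f3b is filled at 5 stages, with the highest value, 2.75, in 2-cell embryos, and H1f8 once, at -5.49 in 4-cell embryos.

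Replication-dependent genes were seldom called between the sides. Of 55 tested, none was called higher in the heavy side at any stage in this fit, while 1 was called lower in 2-cell embryos (H2bc9), 4 in 4-cell embryos and 1 in morulae (H2bc6). Over all genes 11.8%, 12.9% and 4.17% were called lower at these stages. The H2bc9 call was lost in 5 alternatives, edgeR (adjusted p = 0.372) and leaving out gradient C (-1.05) among them, and the H2bc6 call in 4, edgeR (adjusted p = 0.873) and leaving out gradient A among them. The median difference of the 55 genes was -0.05 in GV oocytes (0.08 over all genes), -0.38 in zygotes (-0.04), 0.08 in 2-cell embryos (-0.16) and -0.73 in blastocysts (-0.02). Their summed CPM in zygotes was 488, 367.7 and 676.9 in the heavy and 1160, 687.6 and 954.2 in the light side, while somatic variants had 1605, 1727 and 1710 in the heavy and 1209, 1204 and 1068 in the light side. In blastocysts the replication-dependent sums were 1060, 647.3 and 965 in the heavy and 2239, 1401 and 1733 CPM in the light side, again without overlap. In 2-cell embryos the sums overlapped (2567, 1170 and 1936 against 2048, 1491 and 2087 CPM), and those of the light side were above the somatic variant sums there (716.2, 616.6 and 755.6 CPM), unlike in the transcriptomes of that stage. That stage depended on the processing: in place of 4 members called higher there were 12 under quantile normalization, 13 in edgeR on recovered reads and 19 with the light side from fractions 2 to 5, so the absence of replication-dependent calls there does not hold under other settings. H4c3 in 4-cell embryos, called lower in the heavy side (-2.29, adjusted p = 0.0306), had the opposite sign in edgeR (0.43, adjusted p = 0.888).

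Replication-dependent transcripts stood higher in fraction libraries than in transcriptomes of the same stage, more so than other genes. The median difference of log2(CPM + 1), fractions minus transcriptomes, was 1.67 in GV oocytes (0.09 over all genes), 1.84 in MII oocytes (0.37), 2.03 in zygotes (0.53) and 2.14 in 2-cell embryos (-0.06), over the members with at least 1 CPM in either. It was 1.29 in 4-cell embryos (0.07), 0.82 in 8-cell embryos (0.30), 1.10 in morulae (-0.07) and -0.18 in blastocysts (-0.32). The share of replication-dependent genes at least 1 higher was 92.5% in 2-cell embryos, where 31.2% of all genes were, and 6.38% in blastocysts, where 17.1% were. The median of the somatic variants, over 8 to 10 genes a stage, lay between -0.57 and 1.00.

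In 2-cell embryos H4c3 averaged 432.6 ± 160.1 CPM over the fractions of 3 gradients against 10.6 ± 1.06 CPM in 4 transcriptomes. H1f1 averaged 524.5 ± 108.3 against 11.4 ± 2.99 CPM and H4c4 267.9 ± 75.2 against 5.12 ± 1.05 CPM. H2ax, the somatic variant with a stem-loop, averaged 917.4 ± 369.3 against 74.0 ± 4.10 CPM in GV oocytes, while H3f3a was lower in fractions at every stage from GV oocyte (-1.65) to morula (-1.86). The libraries differ in input, in RNA extraction and in the weight given to each fraction, and these values were not tested. A level in 1 kind of library therefore cannot be read as a level in the other.

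**Figure D5:**
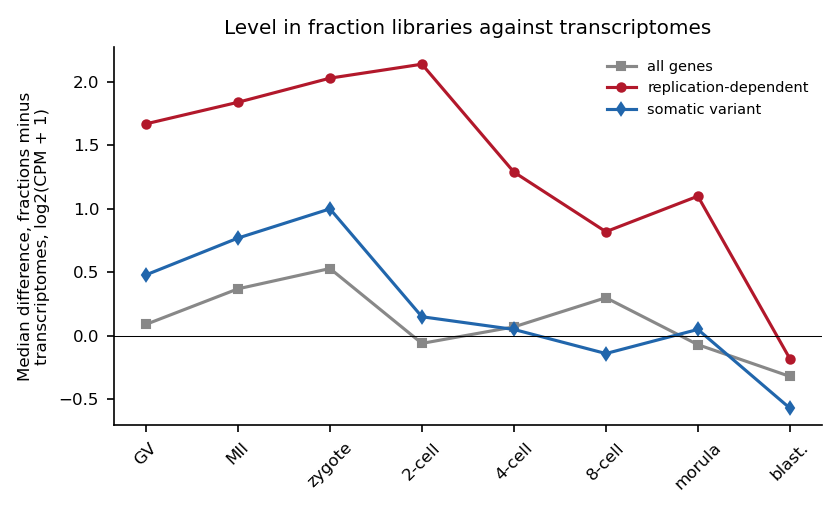
Median difference in log2(CPM + 1), mean of 3 gradients minus mean of 4 transcriptomes, by stage for all genes, replication-dependent genes and somatic variants. The replication-dependent line is highest in 2-cell embryos, at 2.14, and lowest in blastocysts, at -0.18.

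Genes that act on histones were called in both directions at these steps. Of 17 genes for histone mRNA processing, 4 rose and 4 fell from GV to MII oocyte and 9 rose and 4 fell from 2-cell to 4-cell; of 37 tested genes for histone chaperones and deposition, 10 rose and 8 fell, and 14 rose and 5 fell. Over all genes 9.11% rose and 25.3% fell in the first of these steps, and 31.8% rose and 32.9% fell in the other. Slbp, which encodes the stem-loop binding protein, averaged 1967 ± 59.9 CPM in GV oocytes, 5162 ± 1133 CPM in MII oocytes and 5366 ± 436.4 CPM in zygotes, and had the largest fall of its list from 2-cell to 4-cell (1657 ± 143.3 to 166.6 ± 14.4 CPM; -3.31, adjusted p = 4.98e-22). Lsm10, a subunit of the U7 particle that cleaves histone mRNA, fell from 310.2 ± 23.8 CPM in GV oocytes to 11.2 ± 2.05 CPM in MII oocytes (-4.69, adjusted p = 2.98e-18). It rose by 3.48 from MII oocyte to zygote (limma, adjusted p = 3.15e-13) and fell again by 2.79 at 2-cell to 4-cell. The largest rises of the processing list from 2-cell to 4-cell were those of Snrpb (4.505) and Coil (3.045; limma, adjusted p = 2.34e-22 and 1.59e-14). From GV to MII oocyte they were those of Casp8ap2 (1.42) and Upf1 (1.37; limma, adjusted p = 1.4e-13 and 3.41e-06). Chaf1b, a subunit of the assembly factor CAF-1, had the largest fall of the chaperones in maturation (-4.14, adjusted p = 3.94e-22). From 2-cell to 4-cell Npm2, an oocyte nucleoplasmin, and Asf1b, a chaperone of H3 and H4, fell by 3.63 and 3.58 (adjusted p = 5.69e-20 and 7.84e-19), while Set and Ipo4 rose by 3.86 and 3.69 (adjusted p = 7.34e-25 and 5.69e-18). In zygote gradients Slbp was called to the heavy side (3.35, adjusted p = 3.42e-06), as was Casp8ap2 (5.14, adjusted p = 0.00113). Slbp was also called to the heavy side in MII oocytes (2.39) and 2-cell embryos (2.33), and to the light side in 8-cell embryos (-1.46, adjusted p = 0.0221) and morulae (-1.94, adjusted p = 0.00209).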

How the data were processed

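The deposited table holds CPM values made by the authors, 1 column for each of 272 libraries (32 transcriptomes, 240 fractions); 9 columns are recorded as signal because their totals ran slightly past what CPM sums to, and the authors' values there are CPM in effect. Per the submitters' processing notes, Trim Galore 0.6.7, FastQC, HISAT2 2.2.1, featureCounts 2.0.1, edgeR and GRCm39 were used; annotation, strand and multimapping settings are not given in the sources used here. Values were whole multiples of 1 read (tolerance 0.05 reads, 100% of values) in each of the 272 libraries and gave back read counts. The counts of 271 libraries were used in edgeR. Fraction 7 of 2-cell gradient B was left out of that heavy side in edgeR, although its values were whole too. Of 159 symbols in 76 groups with the same values in every library, none a histone, the first of each group was kept, which left 15771.

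Changes were fitted with limma 3.58.1 (R 4.3.3) on log2(CPM + 1), in 1 fit over 32 transcriptomes and 1 over 48 side means, with Benjamini-Hochberg adjustment over all genes tested. edgeR 4.0.16 (quasi-likelihood) on recovered reads, a pseudocount of 0.1, no filter, quantile normalization, fits of the compared groups alone, other fraction sides, a replicate block and leaving out each library or gradient were the alternatives. limma was checked on simulated data. In the 2-cell transcriptomes the column letters (E to H) differ from those of the labels (A to D), so they were used without pairing. Fractions of 1 letter come from 1 gradient, which pairs its sides; heavy and light deviations of a gradient correlated at 0.00776 to 0.253, each best with its own letter.

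Members and lists were chosen with earlier results of these data known. Named were H1f8, members with a stage mean of at least 20 CPM (the highest 10 of a class) and up to 3 called members in each direction of a comparison. H4c3 and others below 20 CPM came in by their change. For the lists of histone mRNA processing and chaperones the rule was the 2 largest called changes in each direction. Not all of these are printed, and Slbp was followed through further gradient stages beyond that rule. The list of other germline chromatin proteins had 2 of 5 genes tested.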

Additional observations from a re-analysis of the deposited data

Results flagged for a closer look

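Each group of 4 transcriptome libraries with reads was examined for a library set apart from the other 3 by most of the group's range. Of 228 groups, 20 held one; chance gives about 1 in 20 groups. Several fell on 4-cell library B, which held 32.6 CPM of H1f3 (others 6.50 to 9.32), 44.6 CPM of H1f5 (16.5 to 17.7), 8.16 CPM of H1f8 (3.70 to 4.02) and 1.23 CPM of H2ac1 (0.0506 to 0.161). Library D of that stage held 1.16 CPM of H2bc4, above 0.214 to 0.31 in the others.

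In 2-cell library G, H2ac23 stood at 9.48 CPM (others 4.57 to 5.29) and H2ac24 at 9.82 CPM (4.81 to 5.45); these copies share their coding sequence. Other 2-cell libraries apart were F for H2ac8 (0.306 CPM, the others at 0) and H for H2bc1 (4.05 CPM, others 1.69 to 1.80). Morula library B held 44.1 CPM of H2ac23, below 160.4 to 175.7 in the others.

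Among oocytes, MII library B held 0.223 CPM of H1f5 (the others at 0), MII library A 0.307 CPM of H2ac11 (0 to 0.0469) and 1932 CPM of H3f3b (2594 to 2623), and GV library A 104.6 CPM of H2az2 (86.8 to 87.4). Zygote library A held 61 CPM of H2az1 (55.6 to 56.4). At the 8-cell stage library D held 597.4 CPM of H2az2 (514.1 to 523.3), library A 2.38 CPM of H2bc11 (1.12 to 1.29) and library C 2061 CPM of H3f3b (2740 to 2806). In blastocysts library A held 41 CPM of H1f3 (66.7 to 69.2) and library C 0.375 CPM of H2ac1 (0.061 to 0.112).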

How the results depend on the processing

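Of 112 calls on histone genes, 53 held in every alternative run, 32 were lost when 1 library or gradient was left out, and 1 reversed: H4c3, heavy against light in 4-cell embryos, from -2.29 to 0.43 in edgeR. Counts of called members that moved by over 1.5 times were as follows. With a pseudocount of 0.1, GV to MII oocyte went from 15 to 23, MII oocyte to zygote from 7 to 13, 8-cell to morula from 2 to 5, and heavy against light from 1 to 2 in zygotes and 7 to 11 in 4-cell embryos. With quantile normalization, GV to MII went to 7 and morula to blastocyst from 26 to 13; heavy against light went from 3 to 5 in MII oocytes, 1 to 4 in zygotes, 6 to 13 in 2-cell and 3 to 1 in 8-cell embryos. With edgeR on recovered reads, MII oocyte to zygote went to 12 and 8-cell to morula to 5; heavy against light went to 15 at the 2-cell, 11 at the 4-cell and 0 at the morula stage, and the MII to zygote shift from 0 to 1. With only the groups compared, 4-cell to 8-cell went from 3 to 0, and heavy against light to 4 in zygotes, 0 at the 2-cell, 0 at the 4-cell, 1 at the 8-cell and 7 at the blastocyst stage; the GV to MII shift went from 0 to 1. With the light side from fractions 2 to 5, heavy against light gave 4 in zygotes, 20 in 2-cell and 3 in 4-cell embryos. With fractions 8 to 10 against 1 to 3 it gave 4 in zygotes, 11 in 2-cell embryos, 3 in morulae and 5 in blastocysts, and the GV to MII shift 1. Where no cause is given by fewer samples or another fraction set, the cause was not tested. In H1f8 the alternatives added the zygote heavy call (2.28, only the groups compared) and the GV to MII call (1.30, edgeR).

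The replicate block for the gradient raised the count in morulae from 1 to 2 and that of the GV to MII shift from 0 to 1, and kept all 21 heavy and light calls. The replicate block on transcriptome letters kept 53 of 53 calls; those letters do not pair the pools, and only from 4-cell to 8-cell did every library correlate best with its own letter. No paired analysis was possible for the 2-cell transcriptomes because their columns carry other letters.

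Leaving out 1 library gave 14 to 16 calls from GV to MII oocyte, 6 to 9 from MII oocyte to zygote, 12 to 14 from zygote to 2-cell, 24 to 27 from 2-cell to 4-cell, 1 to 4 from 4-cell to 8-cell, 2 to 4 from 8-cell to morula and 18 to 30 from morula to blastocyst. Leaving out 1 gradient gave 0 in GV oocytes, 2 in MII oocytes, 0 in zygotes, 6 to 7 in 2-cell, 6 to 10 in 4-cell and 1 to 2 in 8-cell embryos, 0 to 2 in morulae and 0 in blastocysts.

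Quantile normalization shifted the median of all genes by over 0.1 in 5 transcriptome steps and 3 gradient comparisons: GV to MII from -0.11 to 0.16 (1334 higher and 3711 lower became 3234 and 2578), zygote to 2-cell from 0.373 to -0.075 (3684 and 1275 became 2189 and 2529), 2-cell to 4-cell from 0.02 to 0.22 (4662 and 4823 became 5144 and 4364), 4-cell to 8-cell from -0.11 to 0.00 (66 and 314 became 134 and 135), morula to blastocyst from 0.16 to -0.01 (2750 and 1167 became 1785 and 1731), heavy against light in 2-cell embryos from -0.16 to 0.04 (975 and 1783 became 1357 and 1399) and in 4-cell embryos from -0.26 to 0.04 (516 and 1952 became 927 and 954), and the GV to MII shift from -0.14 to -0.01 (11 and 17 became 13 and 12). From 8-cell to morula 1198 higher and 542 lower became 805 and 742. From zygote to 2-cell the replication-dependent median went from 0.09 to -0.13. Members at a few reads in a library, most cluster genes before the 4-cell stage among them, are limited by depth.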

Other observations

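The H2A and H2B sums of replication-dependent genes ran apart after fertilisation (values with no test). Per library, H2A genes held 1.28 to 2.45 CPM in zygotes, 12.4 to 22.9 CPM in 2-cell and 88.4 to 373.1 CPM in 4-cell embryos, and H2B genes 18.4 to 28 CPM, 12.7 to 19.8 CPM and 2.68 to 6.99 CPM. The H2B sum of blastocysts (22.5 to 25.7 CPM) was back near that of zygotes, and the H2A sum was not (293.8 to 1411 CPM). These sums rest on genes with close copies in other places of the genome.

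The number of replication-dependent genes with a mean of at least 1 CPM was 19 of 57 in GV oocytes, 6 in MII oocytes, 12 in zygotes, 19 in 2-cell and in 4-cell embryos, 23 in 8-cell embryos, 22 in morulae and 42 in blastocysts. In MII oocytes 28 of the 57 had at most 3 reads in every library.

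H2bc4 was lower in the fractions than in the transcriptomes of GV oocytes: it averaged 18.7 ± 9.59 CPM over gradients against 86.2 ± 1.45 CPM in transcriptomes (-2.15), where the median replication-dependent gene was 1.67 higher.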
